A study of Mus musculus with 5 samples.

Results

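The genes described here are the inhibitors of cyclin-dependent kinases and the D-type cyclins, 10 of the 54699 genes in the deposited expression table. They were taken by gene symbol and fall into 3 classes: the Cip/Kip inhibitors Cdkn1a, Cdkn1b and Cdkn1c, the INK4 inhibitors Cdkn2a, Cdkn2b, Cdkn2c and Cdkn2d, and the D-type cyclins Ccnd1, Ccnd2 and Ccnd3. RNA was sequenced from B16F10, a pigmented mouse melanoma line, in 5 libraries, 1 for each group. In every group the cells had received a lentivirus. On day 8, cells with forced expression of Myod1, a muscle transcription factor, cells with forced expression of Pparg, a nuclear receptor of fat cells, and cells with the empty expression vector were collected. On day 7, cells with a short hairpin RNA against Setdb1, a histone methyltransferase, and cells with the empty knockdown vector were collected. The labels describe the 3 treated groups as differentiated cells, and name neither the promoter of the vectors nor a clone. With 1 library per group no difference between groups has a replicate check, no p-value is given, and the intervals below are 95% intervals that cover counting error only.

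As background, D-type cyclins bind the kinases CDK4 and CDK6, and the complexes phosphorylate the retinoblastoma protein and its relatives, which releases E2F transcription factors and lets a cell enter S phase. INK4 proteins bind CDK4 and CDK6 themselves and keep the cyclin off. Cip/Kip proteins bind cyclin-kinase complexes and block above all CDK2, and cells that leave the cell cycle to become muscle or fat are known to raise members of this class. Loss of the locus that encodes Cdkn2a and Cdkn2b is common in melanoma.

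The 5 libraries held between 16214802 and 18300670 reads assigned to genes. Levels are given as FPKM, reads for the length of the gene and the depth of the library, as the authors deposited them. Myod1 stood at an FPKM of 260 in its own library and had 0 reads in the other 4, and Pparg stood at 44.4 in its own library with 0 reads in the other 4. Setdb1 stood at 0.867 in the knockdown library and 9.82 in the empty knockdown vector library. All 7 melanocyte markers reached an FPKM of 1 in each library. They summed to 7583 in the empty expression vector library, 3110 with Myod1 and 2195 with Pparg. In the empty knockdown vector library the sum was 8222, and with Setdb1 knockdown 8985. With Setdb1 knockdown against its own control, Pmel rose from 2993 to 4347, and Dct (835 to 906) and Sox10 (244 to 298) were also higher. Mitf was lower there (41.6 to 13.7), as were Tyr (76.9 to 52.9), Tyrp1 (2885 to 2285) and Mlana (1146 to 1082). Markers of muscle summed to 19521.5 in the Myod1 library, those of fat cells to 301 in the Pparg library, and neither exceeded 1.02 elsewhere. Fabp4 (153) and Cd36 (146) made up most of the fat cell sum, while Plin1 stood at 1.25, Cidec at 0.253 and Adipoq at 0.0756. Of the markers of leukocytes, fibroblasts, endothelium and epithelium, Cd3e, Dcn, Lum, Kdr, Epcam and Krt14 were at 0 in every library, while Cd68 made up most of a leukocyte sum that ranged from 2.58 with Pparg to 20.9 with Setdb1 knockdown, and Lyz2 stood at 0.714 to 2.05. With Setdb1 knockdown Cd68 stood at 18.7 against 3.996 in its own control and 12.2 in the other control, Csf1r had 15 reads against 0, and Ptprc had 2 against 0. The fibroblast sum was 0.438 to 2.52, with Col1a1 at 1.92 in the Pparg library and 0.737 in its control. The endothelial sum was at most 0.596, in the Myod1 library, where Cdh5 had 34 reads against 0 in the other 4, and the epithelial sum at most 0.195. In RNA from whole cultures, fewer cells with a transcript and less of it per cell cannot be told apart.

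Cdkn1a was the inhibitor with the highest level in every library. It encodes p21, the Cip/Kip protein that p53 induces after DNA damage and that MyoD raises in muscle precursors. The gene lies at chr17:29090976-29100727 of GRCm38 on the plus strand (ENSMUSG00000023067). Its 2 start sites in RefSeq (GRCm38.p6) are shown because Cdkn1a was past the 2-fold limit in 2 comparisons. Each window runs 5′ to 3′ from 250 bases before the start to 50 after it. In the first, at chr17:29090729-29091028, capitals mark the E-box CAGCTG, a form that MyoD is known to bind, and 2 matches to the half-site of the p53 response element. In the second, at chr17:29093519-29093818, capitals mark the 2 matches to the general E-box CANNTG.
Cdkn1a first start: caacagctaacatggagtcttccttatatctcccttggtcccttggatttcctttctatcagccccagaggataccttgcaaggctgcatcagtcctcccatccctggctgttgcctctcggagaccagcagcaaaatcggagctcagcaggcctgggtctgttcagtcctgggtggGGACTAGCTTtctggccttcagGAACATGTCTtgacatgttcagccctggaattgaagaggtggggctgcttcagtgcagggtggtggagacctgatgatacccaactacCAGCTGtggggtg
Cdkn1a second start: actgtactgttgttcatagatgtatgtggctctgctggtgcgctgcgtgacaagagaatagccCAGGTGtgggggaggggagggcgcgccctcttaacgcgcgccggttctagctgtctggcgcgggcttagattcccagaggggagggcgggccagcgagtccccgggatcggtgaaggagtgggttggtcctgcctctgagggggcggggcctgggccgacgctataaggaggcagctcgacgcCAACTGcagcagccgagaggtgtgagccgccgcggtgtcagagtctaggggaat

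The E-box CAGCTG in the first window began 37 bases after the start, and the half-sites began 73 and 51 bases before it. CAGCTG, which is one form of CANNTG and reads the same on both strands, was present in 16.3% of the 32851 windows of this length in the table, CANNTG in 72.3% and the p53 half-site in 8.36%. The half-site was searched on both strands after the sequence had been seen. Windows were given for 7 of the 10 genes, 11 windows in all. CANNTG occurred in 4 of these 11, CAGCTG only in the first window of Cdkn1a, and the half-site in that window and in the one of Cdkn2d, the INK4 inhibitor p19. These matches describe the letters and are not evidence of binding in these cells.

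Cdkn1a had an FPKM of 119 in the empty expression vector library, 425 with Myod1, 179 with Pparg, 119 in the empty knockdown vector library and 262 with Setdb1 knockdown. All 3 treated libraries stood above both controls, and only the intervals of the controls overlapped each other. The level with Myod1 was 3.57-fold (3.48 to 3.67) that of its control, a log2 ratio of 1.83, and 5.24% of the genes compared had a higher ratio. Setdb1 knockdown gave 2.20-fold (2.14 to 2.26) the level of its control, a log2 ratio of 1.13. Pparg gave 1.502-fold (1.46 to 1.55), a log2 ratio of 0.58 that was below the limit of 2-fold used here. The 2 controls differed 1.004-fold (0.972 to 1.04). Against the control of the other vector the log2 ratios were 1.82, 1.13 and 0.58 for Myod1, Setdb1 knockdown and Pparg. By FPKM, Cdkn1a ranked 384 among all genes of the empty expression vector library and 110 in the Myod1 library, and 371 in the empty knockdown vector library and 152 with Setdb1 knockdown. AC167363.2, a transcript of unknown coding status on the opposite strand, shares 273 exonic bases with Cdkn1a, and its own level was between 0.761 and 3.05.

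Cdkn1b encodes p27, the Cip/Kip protein that holds resting cells in G1 and is degraded through SCF-Skp2 as cells enter S phase. Its FPKM was 15.9 in the empty expression vector library, 12.2 with Myod1, 13.6 with Pparg, 10.3 in the empty knockdown vector library and 20.0 with Setdb1 knockdown. The knockdown library was the highest and its own control the lowest, and the Myod1 and Pparg libraries, with overlapping intervals, lay between the controls. Setdb1 knockdown gave 1.94-fold (1.78 to 2.11) the level of its control, a log2 ratio of 0.89 that did not pass the limit. Against the empty expression vector the same library stood at 1.26-fold, a log2 ratio of 0.32, since the 2 controls themselves differed 1.54-fold (1.40 to 1.68). The log2 ratio was -0.35 for Myod1 and -0.21 for Pparg, and both turned positive, to 0.22 and 0.37, against the other control.

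Cdkn1c, an imprinted gene that encodes p57, had few reads: 8 in the empty expression vector library, 29 with Myod1, 19 with Pparg, 16 in the empty knockdown vector library and 21 with Setdb1 knockdown. These are FPKM of 0.240, 0.905, 0.486, 0.469 and 0.557, so that Cdkn1c stayed below the level of 1 needed for the comparison. The ratio of Myod1 to its control was 3.77 with an interval from 1.68 to 9.53. The intervals of the other 2 treated libraries against their controls included equality. Against the empty knockdown vector the Myod1 ratio was 1.93 with an interval from 1.01 to 3.80. No neighbouring levels in the order of the 5 libraries had separate intervals.

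**Figure D1:**
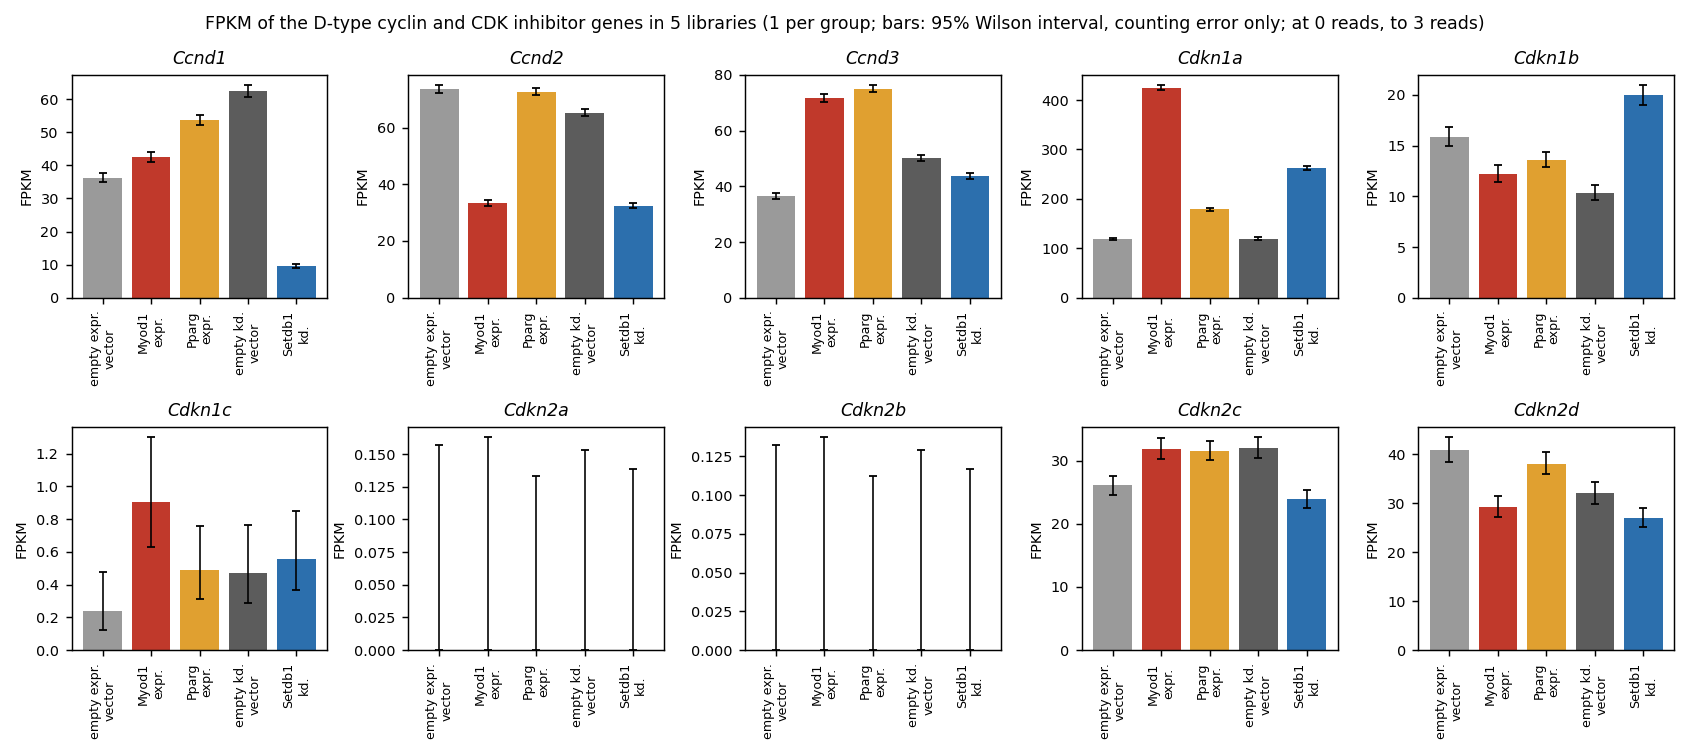
FPKM of each of the 10 members (1 panel per gene, each with its own linear axis from 0) in the 5 libraries, 1 bar per library, with 95% Wilson intervals for counting error (expr. stands for expression, kd. for knockdown). Cdkn1a runs from 119 in both controls to 425 with Myod1, Ccnd1 from 62.4 in the empty knockdown vector library to 9.58 with Setdb1 knockdown, and Cdkn2a and Cdkn2b have bars of 0, with lines up to the FPKM of 3 reads in place of the interval.

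Of the INK4 genes, Cdkn2a, which encodes p16 and the p53 activator p19ARF from overlapping frames, and Cdkn2b, which encodes p15, had 0 reads in all 5 libraries among 86133768 reads in total. The limit that a count of 0 allows, 3 reads, corresponds to an FPKM from 0.134 to 0.163 for Cdkn2a and from 0.113 to 0.137 for Cdkn2b. The genes are neighbours at chr4:89274471-89294653 and chr4:89306299-89311039 of GRCm38, separated by 11.6 kb. They lay within a run of 5 consecutive genes of the table without a read, Tgif2-ps1, Gm12606, Cdkn2a, Cdkn2b and Gm12609. This run was bounded by Gm26490 and Gm12610, each with 2 reads over all libraries, 239 kb apart. A longer run of genes without a read, from Ifna12 to Gm13273, lay within 1 Mb of Cdkn2a.

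Genes further out were read. Mtap, an enzyme of methionine salvage that ends 93.4 kb from Cdkn2a, had an FPKM of 76.8 in the empty expression vector library, 46.2 with Myod1, 75.4 with Pparg, 121 in the empty knockdown vector library and 30.8 with Setdb1 knockdown. Klhl9, an adaptor of a ubiquitin ligase, lay between 11.4 and 14.9 in all 5. Within 1 Mb on each side of Cdkn2a, 28 of 40 protein-coding genes had no read in any library, against 28.4% of the protein-coding genes of the table. The window holds the cluster of type I interferon genes, and over all biotypes 44 of its 71 genes, 62.0%, were at 0, against 56.4% of the whole table. Expression values alone do not tell a deleted gene from a silent one, and the copy number of the locus was not tested.

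**Figure D2:**
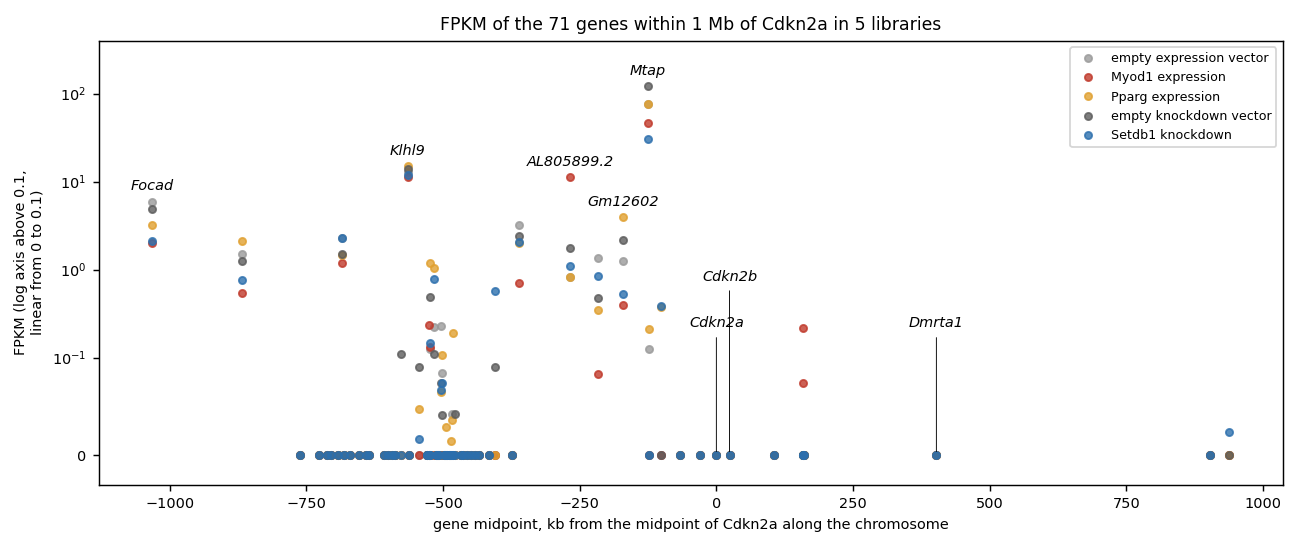
FPKM of the 71 genes within 1 Mb of Cdkn2a, 1 point per gene and library, on an axis that is logarithmic above 0.1 and linear below it, by distance of the gene's midpoint from that of Cdkn2a in kb. Cdkn2a and Cdkn2b sit at 0 in a stretch without reads, and Mtap, which ends 93.4 kb away, reaches 121.

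Cdkn2c and Cdkn2d, which encode the INK4 proteins p18 and p19, were both expressed, and neither passed the limit of 2-fold in any comparison. Cdkn2c had an FPKM of 26.1 in the empty expression vector library, 31.9 with Myod1, 31.5 with Pparg, 32.0 in the empty knockdown vector library and 23.9 with Setdb1 knockdown. The 3 highest libraries could not be ordered, and in the sequence of levels only the step from the empty expression vector to Pparg was larger than the intervals. The log2 ratio was -0.41 for Setdb1 knockdown, that is 1.34-fold lower (1.24 to 1.45). It was 0.28 for Myod1, negative when each library was divided by its sum or set against the other control, and 0.26 for Pparg, negative against the other control. The controls differed by 0.28 themselves.

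Cdkn2d had an FPKM of 40.8 in the empty expression vector library, 29.2 with Myod1, 38.1 with Pparg, 32.0 in the empty knockdown vector library and 27.0 with Setdb1 knockdown. Ordered by level, the only neighbours with separate intervals were the empty knockdown vector and Pparg libraries. Setdb1 knockdown and its own control, which are not neighbours in that order, also had separate intervals, at 1.19-fold lower (1.07 to 1.31) with the knockdown. The log2 ratios were -0.47 for Myod1, -0.24 for Setdb1 knockdown and -0.10 for Pparg, the last positive after division by the library sum and against the other control.

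Ccnd1, the D-type cyclin that growth factor signalling through the MAP kinase pathway induces, was the member with the widest range. Its FPKM was 36.3 in the empty expression vector library, 42.4 with Myod1, 53.8 with Pparg, 62.4 in the empty knockdown vector library and 9.58 with Setdb1 knockdown, with all intervals separate. The knockdown library stood far below the other 4, which spanned less than 2-fold among themselves. Setdb1 knockdown left a level 6.52-fold (6.05 to 7.02) lower than its control, a log2 ratio of -2.58, and 0.327% of the genes compared had a lower ratio. Against the empty expression vector it was 3.78-fold lower (3.501 to 4.09), a log2 ratio of -1.82. The controls differed 1.72-fold (1.64 to 1.80), with the empty knockdown vector higher. The log2 ratio for Pparg was 0.56, or -0.21 against the other control. For Myod1 it was 0.22, or -0.55 against the other control, and it was also negative after division by the library sum.

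Ccnd2, the D-type cyclin with a role in the growth of ovarian, pancreatic and neural precursor cells, had an FPKM of 73.6 in the empty expression vector library, 33.4 with Myod1, 72.6 with Pparg, 65.3 in the empty knockdown vector library and 32.5 with Setdb1 knockdown. The libraries formed a low pair, Myod1 and Setdb1 knockdown, with overlapping intervals, and a high set of 3 in which Pparg overlapped the empty expression vector. The level with Myod1 was 2.20-fold (2.13 to 2.28) lower than its control, a log2 ratio of -1.12. Against the empty knockdown vector it was 1.95-fold lower, a log2 ratio of -0.94 that did not pass the limit. With Setdb1 knockdown the FPKM was 2.01-fold lower (1.94 to 2.07), but the log2 ratio of -0.98 with the pseudocount of 1 fell just short of the limit. That ratio was -1.15 against the empty expression vector. For Pparg the log2 ratio of -0.02 changed sign after division by the library sum and against the other control.

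Ccnd3, the D-type cyclin that is best known from lymphocytes and that stays on in differentiating muscle cells, had an FPKM of 36.4 in the empty expression vector library, 71.6 with Myod1, 74.97 with Pparg, 50.1 in the empty knockdown vector library and 43.8 with Setdb1 knockdown. The libraries with Myod1 and Pparg were the highest, and all intervals were separate. Pparg gave 2.06-fold (1.99 to 2.13) the level of the empty expression vector, a log2 ratio of 1.02, and Myod1 gave 1.97-fold (1.90 to 2.03), a log2 ratio of 0.96 below the limit. Against the empty knockdown vector, which stood 1.37-fold above the other control, these log2 ratios were 0.57 and 0.51, so that the call for Pparg was lost. The log2 ratio for Setdb1 knockdown was -0.19, and 0.26 against the empty expression vector.

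Ccnd1 shares 1100 exonic bases with Oraov1 on the opposite strand, whose FPKM was 1.62 to 4.78, and Ccnd3 shares 361 with Bysl, at 20.2 to 34.5. Ccnd2 shares 368 and 372 bases with 2 antisense genes whose FPKM was at most 0.214, and Cdkn1c shares 625 with Gm44732, which had no reads. Whether reads were counted by strand is not given in the sources used here, so reads of these partners cannot be told apart. A processed copy of Ccnd3, Ccnd3-ps, had 1 read over all libraries.

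**Figure D3:**
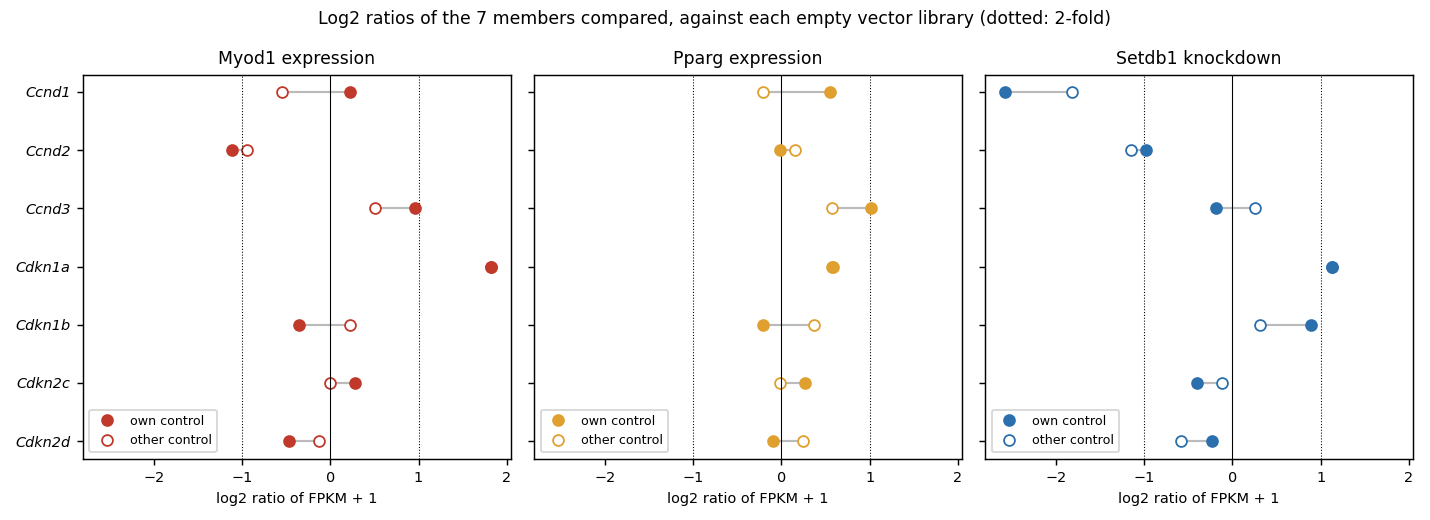
Log2 ratio of FPKM + 1 of the 7 members compared, 1 panel per treatment, with filled points against the own empty vector library, open points against the other one, and dotted lines at 2-fold. Filled points past the limit are Cdkn1a and Ccnd2 with Myod1, Ccnd3 with Pparg, and Cdkn1a and Ccnd1 with Setdb1 knockdown, and the open points of Ccnd2 with Myod1 and of Ccnd3 with Pparg lie inside it.

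Counted together, 7 of the 10 members reached an FPKM of 1 in some library and so entered the comparison, which covered 12842 genes. With Myod1, 2 of the 7 passed the 2-fold limit, Cdkn1a higher and Ccnd2 lower, which is 28.6% against 21.6% of all genes compared (14.0% higher and 7.55% lower). With Pparg, 1 of the 7 did, Ccnd3 higher, which is 14.3% against 6.52% of all genes (4.22% higher and 2.30% lower). With Setdb1 knockdown, 2 of the 7 did, Cdkn1a higher and Ccnd1 lower, which is 28.6% against 19.7% of all genes (9.34% higher and 10.3% lower). Between the 2 controls none of the 7 did, against 2.67% of all genes. The 7 members all had a mean FPKM of at least 10, and among the 5020 genes at that level the shares were 21.8%, 6.18%, 21.3% and 2.15% in the same order. With 7 genes these counts do not set the members apart from the background. The median log2 ratio of the 7 was 0.22 for Myod1, 0.26 for Pparg, -0.24 for Setdb1 knockdown and 0.01 between controls, beside 0.02, -0.02, 0.0049 and -0.0029 for all genes. The Myod1 and Pparg comparisons share their control library.

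FPKM is per length, so the levels of different members were added within a library. The length used for each member equals all its annotated exon bases, such as 8775 over 21 transcripts for Ccnd3 and 1574 over 3 for Cdkn2d. A gene read mostly as shorter transcripts gets a lower FPKM, so sums and shares across genes are approximate. Cip/Kip inhibitors summed to an FPKM of 135 in the empty expression vector library, 438 with Myod1, 193 with Pparg, 130.3 in the empty knockdown vector library and 283 with Setdb1 knockdown. Cdkn1a made up between 88.1% and 97.0% of these sums. INK4 inhibitors summed to 66.9, 61.1, 69.6, 64.0 and 50.9 in the same order of libraries, all from Cdkn2c and Cdkn2d.

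D-type cyclins summed to 146 in the empty expression vector library, 147 with Myod1, 201 with Pparg, 178 in the empty knockdown vector library and 85.8 with Setdb1 knockdown. The sum with Myod1 was 1.01 times that of its control, and lower than its control, 117 against 153, after division by the library sum. The sum with Setdb1 knockdown was 2.07-fold lower than its control. Summed inhibitor over summed cyclin FPKM was 1.38 in the empty expression vector library, 3.38 with Myod1, 1.30 with Pparg, 1.09 in the empty knockdown vector library and 3.89 with Setdb1 knockdown. This ratio does not depend on how libraries are scaled to each other. It was high in the Myod1 library, where the inhibitor sum was higher. The cyclin sum there was like that of its control as deposited, but lower after division by the library sum. The ratio was also high in the knockdown library, where the inhibitor sum was higher and the cyclin sum lower.

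The make-up of the D-type cyclins differed between libraries, also independently of scaling. Ccnd2 was the leading D-type cyclin of the empty expression vector library, with 50.3% of the summed FPKM, and had 22.7% with Myod1 and 36.1% with Pparg. Ccnd3 had 24.9% of the sum in that control, 48.6% with Myod1 and 37.2% with Pparg. In the empty knockdown vector library Ccnd1, Ccnd2 and Ccnd3 had 35.1%, 36.7% and 28.2%. With Setdb1 knockdown Ccnd1 had 11.2%, Ccnd2 37.9% and Ccnd3 51.0%. Ccnd3 thus had the highest FPKM of the 3 with Myod1 and with Setdb1 knockdown, and Ccnd2 in the empty expression vector library. With Pparg the intervals of Ccnd3 and Ccnd2 overlapped, and in the empty knockdown vector library those of Ccnd2 and Ccnd1 did.

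**Figure D4:**
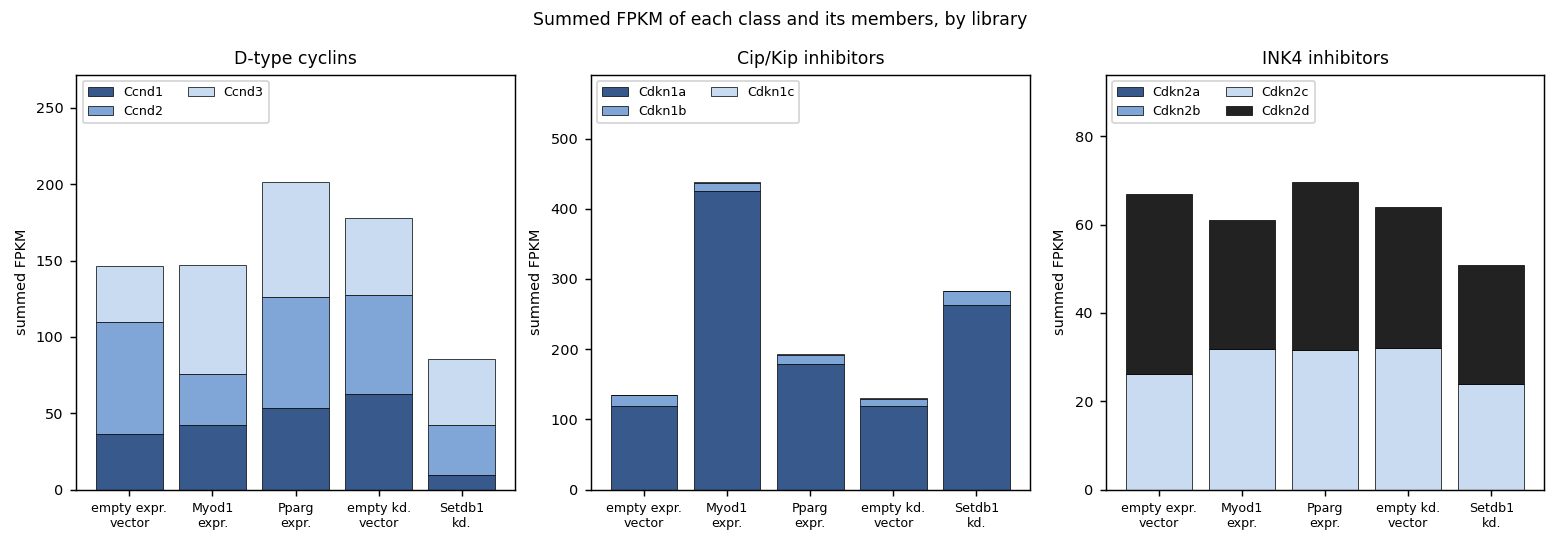
Summed FPKM of the D-type cyclins, the Cip/Kip inhibitors and the INK4 inhibitors in each of the 5 libraries, 1 panel per class with its own axis from 0, as bars stacked by gene (expr. stands for expression, kd. for knockdown). The Cip/Kip sums with Myod1 (438) and with Setdb1 knockdown (283) exceed those of the other 3 libraries, and the cyclin sum with Setdb1 knockdown (85.8) is the lowest.

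Profiles over the 5 libraries were set beside those of 12687 other genes with a symbol, by the root-mean-square difference of log2(FPKM + 1) after centring each gene on its mean. This describes likeness over 5 libraries in which most of the spread comes from a few of them. Near to Cdkn1a were Rmdn1 and Rdh14, at differences of 0.0439 and 0.0608. Rdh14, for one, had an FPKM of 6.37 in the empty expression vector library, 28.0 with Myod1, 10.96 with Pparg, 7.15 in the empty knockdown vector library and 15.5 with Setdb1 knockdown. Nearest to Ccnd2 were Fads2, Itpripl2 and Wrn at 0.0288, 0.0323 and 0.0659, and nearest to Ccnd3 were Pdlim5, Gm14808 and Spry4 at 0.0831, 0.0846 and 0.0862. Some of these genes were low, with Wrn at an FPKM of 0.235 to 1.92 and Spry4 at 0.0667 to 1.47. The pseudocount of 1 compresses differences at such levels, so their fold differences were larger than those of Ccnd2 and Ccnd3. Ccnd1 had no neighbour as close, with Adgrl2, Isoc1 and Cetn2 at 0.154, 0.157 and 0.199.

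The genes that act with the members in the G1 to S step were counted in 11 lists of 62 genes, of which 61 were compared. At least 2-fold differences were 2 higher and 17 lower with Myod1, 1 higher and 3 lower with Pparg, 1 higher and 31 lower with Setdb1 knockdown, and 0 higher and 1 lower between the controls. These are 31.1%, 6.56%, 52.5% and 1.64% of the 61, beside the 21.6%, 6.52%, 19.7% and 2.67% of all genes given above, so that the share with Pparg was that of the background. With Myod1 the counts were 1 higher and 28 lower after division by the library sum, which shifted the median of all genes by -0.28, and 22 were lower against the other control. The 1 gene higher with Setdb1 knockdown was Lin37, of the MuvB core, at 1.001, and it missed the limit under the other scalings and against the other control, where it was at 0.86. Against that control 2 genes passed it, Cryab at 1.01 and Lin52, also of the MuvB core, at 1.27. The median log2 ratio over the 61 was -0.62, -0.14, -1.0002 and 0.20 in the same order. The lists of the CDK-activating kinase, of the turnover of D-type cyclins and of p53 regulation had no gene past the limit in any of the 4 comparisons. In the turnover list Gsk3b, at -0.93 with Setdb1 knockdown, reached -1.01 under another scaling of the libraries, and Cryab, at 0.88, reached 1.01 against the other control.

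Of the kinases, Cdk4, the partner of the D-type cyclins, had an FPKM of 106 in the empty expression vector library, 64.4 with Myod1, 103 with Pparg, 124 in the empty knockdown vector library and 135 with Setdb1 knockdown. Its log2 ratios of -0.71, -0.05 and 0.13 for Myod1, Pparg and Setdb1 knockdown were all below the limit, that for Myod1 passed it at -1.10 after division by the library sum, and that for Pparg changed sign there. Cdk6, the other partner, was low, at 0.340 to 2.10, with log2 ratios of -0.40, 0.60 and -0.66. At such levels the pseudocount of 1 makes these ratios smaller than those of the FPKM alone. Cdk2, the partner of cyclins E and A and the main target of Cip/Kip proteins, had an FPKM of 68.6, 39.8, 28.6, 73.7 and 62.3 in the order used above. It fell with Pparg, at a log2 ratio of -1.23 (-1.34 against the other control), and its log2 ratio was -0.24 with Setdb1 knockdown and -0.77 with Myod1, or -1.16 after division by the library sum.

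Rb1, the retinoblastoma protein that D-type cyclin complexes phosphorylate, rose in both expression libraries. Its FPKM was 2.37 in the empty expression vector library, 8.19 with Myod1, 8.20 with Pparg, 2.75 in the empty knockdown vector library and 1.599 with Setdb1 knockdown. The log2 ratio was 1.45 for Myod1 and 1.45 for Pparg, 1.29 for each against the other control, and -0.53 for Setdb1 knockdown. Its relative Rbl1, itself a gene that E2F induces, fell with Myod1 (-1.55) and with Setdb1 knockdown (-2.13). Of the 10 E2F and DP factors, E2f2 rose and E2f5 fell with Myod1, at 1.33 and -1.02, beside 14.0% of all genes compared that were higher and 7.55% that were lower. After division by the library sum E2f2 missed the limit at 0.96 and E2f1 passed it at -1.17. With Setdb1 knockdown 5 of the 10 fell, beside 10.3% of all genes compared, among them E2f1 at -2.09 and E2f8 at -2.04. E2f2 was the 1 of these 5 at the limit itself, at -1.0002.

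Skp2, the subunit that recognises Cdkn1b and Cdkn1a for degradation, had an FPKM of 5.09 in the empty expression vector library, 1.83 with Myod1, 3.21 with Pparg, 7.89 in the empty knockdown vector library and 0.721 with Setdb1 knockdown. It fell with Myod1, at a log2 ratio of -1.10, and with Setdb1 knockdown, at -2.37. Its ratio for Pparg was -0.53, or -1.08 against the other control. Cks1b, the cofactor of Skp2 in that step, fell from 81.7 to 8.16 with Setdb1 knockdown, at -3.18. Ccna2, the S phase cyclin, fell with Myod1 (-1.48) and with Setdb1 knockdown (-2.90), where Ccne2 also fell (-1.65).

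Of 15 classic targets of E2F, 9 fell with Myod1 (median log2 ratio -1.04), 1 with Pparg (median -0.23) and 15 with Setdb1 knockdown (median -2.13), beside 7.55%, 2.30% and 10.3% of all genes compared that were at least 2-fold lower. The 1 gene with Pparg was Mki67, which was also the 1 that differed between the controls. Division by the library sum raised the genes at least 2-fold lower with Myod1 from 970 to 1907 of all genes and to 15 in the list. Mki67, the proliferation marker, had an FPKM of 33.5 in the empty expression vector library, 2.21 with Myod1, 11.9 with Pparg, 12.6 in the empty knockdown vector library and 0.897 with Setdb1 knockdown. It was the lowest of the list in all 3 treated comparisons, at -3.43, -1.41 and -2.84, but it also differed by -1.34 between the controls, and its ratio for Pparg was -0.07 against the empty knockdown vector. Next to it stood Mcm6, of the replicative helicase, at -1.61 with Myod1, and Rrm2, of ribonucleotide reductase, at -2.78 with Setdb1 knockdown.

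Regulators of later phases were among the lists. Mybl2 and Foxm1, which drive G2/M genes, fell with Myod1 (-1.26 and -1.23) and with Setdb1 knockdown (-1.73 and -2.17). Wee1, the kinase that restrains CDK1, fell with both (-1.42 and -1.81), as did Cdc25c, the phosphatase that opposes it (-1.26 and -2.00). With Pparg the only gene of that list past the limit was Cdc25b (-1.03), at -0.55 against the other control. Markers of muscle moved with the Myod1 library and, of the fat cell markers, mainly Fabp4 and Cd36 with the Pparg library, as given above. The summed melanocyte markers were lower in both libraries than in their control. The summed leukocyte markers stood at 20.9 with Setdb1 knockdown against 5.54 in its own control and 13.6 in the other, mostly Cd68. Their part in these values was not tested.

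**Figure D5:**
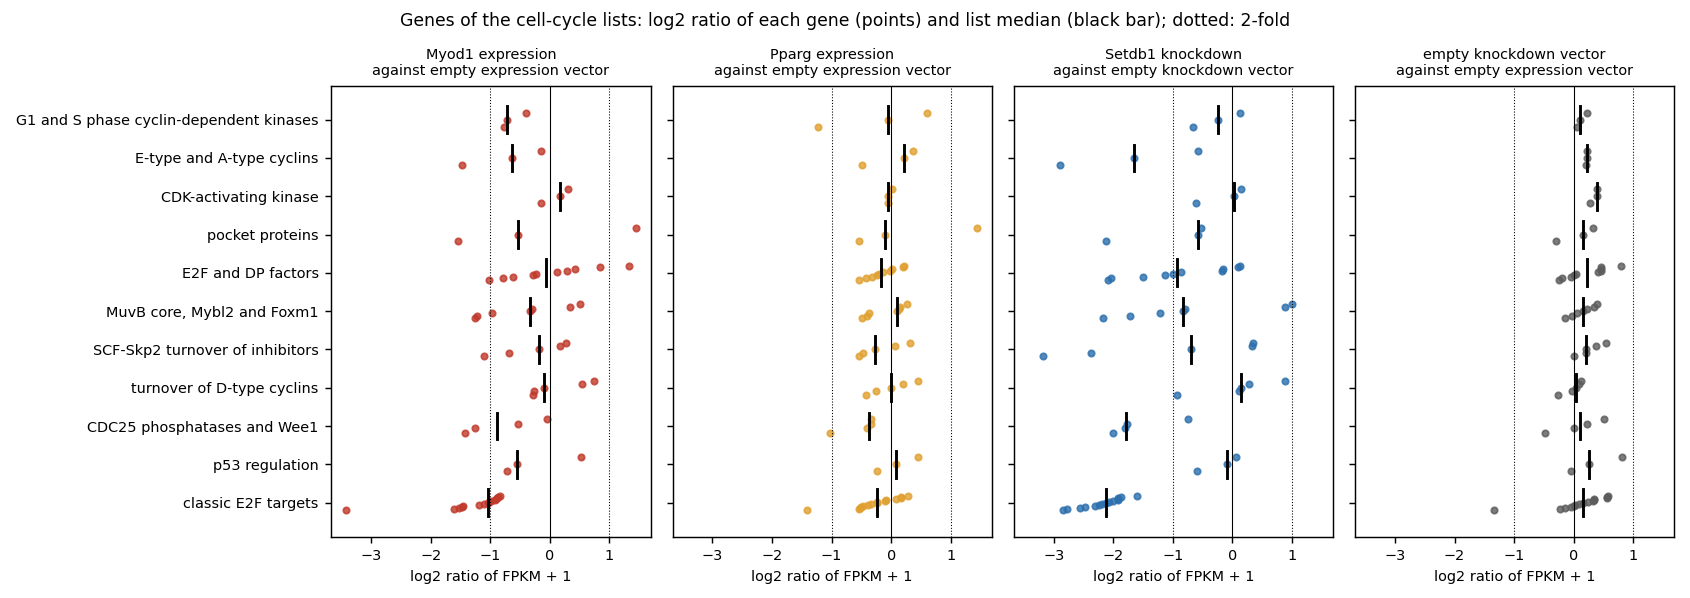
Log2 ratio of FPKM + 1 of the genes of each pathway list in the 3 treated comparisons and between the controls, 1 point per gene, with a black bar at the median of the list and dotted lines at 2-fold. All 15 classic E2F targets lie below the lower line with Setdb1 knockdown, against 9 with Myod1 and 1 with Pparg.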

How the data were processed

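The authors deposited 1 table of FPKM with gene position, length (other) and biotype, per the file headers. CASAVA, HISAT2, featureCounts 1.5.0-p3 and GRCm38 are named in the submitters' processing notes; strand setting and treatment of shared reads are not given in the sources used here. Libraries were made from total RNA with the NEBNext Ultra RNA kit, per the labels. In each library 100% of the deposited FPKM, times gene length, were whole multiples of 1 step (tolerance 1e-06), which gave back the reads. The number the reads had been divided by was 0.859 (Myod1) to 1.10 (Pparg) times those recovered, so the deposited FPKM were already scaled between libraries, by a step not given in the sources used here. Depth was 16214802 to 18300670 reads.

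Genes that reached an FPKM of 1 in some library entered the comparison by log2((FPKM + 1)/(FPKM + 1)), with a limit of 2-fold. Intervals at 95% are Wilson (share of reads) and exact conditional (ratio of FPKM). The floor is 3 reads. Reads without molecular identifiers are not independent molecules, so intervals cover counting error only. With 1 library per group no test was run. Scripts (Python 3.11.15, pandas 2.3.3, scipy 1.17.1) were tested on simulated data.

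The members and lists were chosen with earlier results of these data known. Named are all 10 members, Cdk4, Cdk6, Cdk2, Rb1, Skp2 and Mki67, at most 2 genes past the limit per list and comparison, the 3 genes with the most alike profile for each member past the limit (1 is not reported here), genes within 1 Mb of Cdkn2a, and genes that overlap a member. E2f2, Lin37 and Lin52 with Setdb1 knockdown, E2f1 with Myod1, Gsk3b, Cryab and the single marker genes were named after their values were seen. Of 54495 identifiers shared with GENCODE M21, 98.3% had the same position. Promoter windows are from RefSeq (GRCm38.p6). Alternatives were a pseudocount of 0.1, no filter, a mean FPKM of at least 1, scaling by the column sum or the 75th percentile, median centring, 3 reads in place of the pseudocount, the other control and a 4-fold limit. A mean FPKM of at least 10 was added after the data were seen.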

Additional observations from a re-analysis of the deposited data

How the results depend on the processing

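No paired analysis was possible because each group has 1 library. Of the 28 member ratios, 5 passed 2-fold. All 5 kept their direction under every alternative run, and 3 stayed past 2-fold under all except the 4-fold limit: Cdkn1a with Myod1 and with Setdb1 knockdown, and Ccnd1 with Setdb1 knockdown. With the other control the number of members past the limit was 1 for Myod1 (Ccnd2 lost) and 0 for Pparg (Ccnd3 lost). With a 4-fold limit it was 0 for Myod1, 0 for Pparg and 1 for Setdb1 knockdown (Ccnd1). Of the 23 other ratios, 9 changed sign under some alternative and 1, Ccnd2 with Setdb1 knockdown, passed 2-fold. Division by the column sum moved the median of all genes by -0.28 (log2) in the Myod1 comparison, to 1238 genes higher and 1907 lower from 1798 and 970. The 75th percentile moved it by -0.12.

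Summed FPKM after division by the column sum, in the order empty expression vector, Myod1, Pparg, empty knockdown vector and Setdb1 knockdown, were 153, 117, 227, 193 and 87.9 for D-type cyclins and 141, 349, 217, 141 and 290 for Cip/Kip inhibitors. For INK4 inhibitors they were 70.0, 48.6, 78.3 and 69.3 in the first 4. At the 75th percentile the first 4 were 151, 133, 210, 187 for D-type cyclins and 139, 396, 201, 137 for Cip/Kip inhibitors. INK4 sums were 55.3 with Myod1, 72.5 with Pparg and 67.3 with the empty knockdown vector. Few reads limit the ratios of Cdkn1c. With 0 reads, Cdkn2a and Cdkn2b have no ratio.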
